A study of Mus musculus with 8 samples.

Results

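Interferon-stimulated genes are the transcripts that cells raise when an interferon binds its receptor, and 34 of them were taken as a named list: every probe set whose gene symbol in the array's annotation is one of the 34 belonged to it, and the brightest probe set stood for each gene. Of the 34 listed genes, 31 had a probe set that carries their symbol alone, out of 13119 genes with such a probe set on these arrays. The other 3 were Isg15, whose only probe set is shared with another gene, and Mx2 and Ifi44, for which the annotation used here names none. Uterine RNA was compared between wild-type and Cox-1 KO mice on day 18 of pregnancy, with 4 arrays of each genotype. The wild-type mice were C57BL/6 females, and the Cox-1 KO mice, which lack cyclooxygenase-1 (Ptgs1), were females of a mixed background. The sample labels name it C57BL/6 x Sv129, and the methods name 129P2 in place of Sv129. The labels name no treatment. Both genotypes were 6 to 16 weeks old by the labels and 8 to 16 weeks old by the methods. The deletion is constitutive, so no cell of the uterus is spared, and since the background differs along with the deleted gene, an effect of one cannot be told apart from an effect of the other. By the methods, tissue of the conceptus had been dissected away.

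Interferons are secreted proteins that announce viral infection. Type I interferons (alpha, beta, epsilon and others) bind the receptor pair Ifnar1 and Ifnar2, type II interferon (gamma) binds Ifngr1 and Ifngr2, and the lambda interferons bind Ifnlr1 with Il10rb. The receptors activate the kinases Jak1, Jak2 and Tyk2, which switch on STAT proteins. Stat2 and Irf9 belong to a complex that binds the interferon-stimulated response element in the promoters of its target genes, while gamma interferon acts mainly through another element, the gamma-activated site. In the mouse uterus, gamma interferon from natural killer cells remodels the decidual arteries in earlier pregnancy, and interferon epsilon is made by the epithelium of the reproductive tract. Many interferon-stimulated genes are transcribed at a basal level in the absence of infection.

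The values are signals, the brightness of a probe set computed by the Affymetrix Microarray Suite (MAS5) after each array was scaled to the same average, and a signal is compared only with the same probe set on another array. The median signal of an array was 731 to 757, and array pairs correlated at 0.944 to 0.982 on the log2 scale. The probe set that the study assigns to Ptgs1 had signals of 7048 to 10756 on the wild-type arrays and 76 to 136 on the Cox-1 KO arrays, in the direction the labels require. It was found in the study's additional file, which lists only genes that differ between these genotypes. Some difference was therefore assured, and this is not an independent check of the labels. Markers of smooth muscle (6 of 6 listed genes measured, summed signal 211791 to 240152 in wild-type and 220262 to 239618 in Cox-1 KO) and of uterine stroma (6 of 6, 131025 to 138697 and 128245 to 136938) had a signal on every array. Des is counted in both lists, so these sums are not separate measures. The arrays differed in yolk sac transcripts: Apoa1, an apolipoprotein of yolk sac and liver, had signals of 342 to 842 on wild-type replicates 1, 2 and 3 and Cox-1 KO replicate 2, and of 50275 to 69038 on wild-type replicate 4 and Cox-1 KO replicates 1, 3 and 4. Because the high arrays are mostly Cox-1 KO, results below are also given with the level of 10 yolk sac and fetal liver transcripts as a covariate, and without those 4 arrays. In whole-tissue RNA, fewer cells of a type and less RNA in each cell cannot be told apart. Replicates are separate mice.

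The interferon-stimulated genes were at nearly the same level in both genotypes. None of the 31 passed an adjusted p under 0.05 in a linear model over all probe sets (limma, Benjamini-Hochberg adjustment over 26444 probe sets), and the smallest adjusted p was 0.48, for Usp18. Few genes passed anywhere on these arrays, 0.0113% of the probe sets and 0.0079% of the genes tested. At an unadjusted limma p under 0.05, 3 of the 31 were higher in Cox-1 KO uterus (Usp18, Rsad2 and Ifi27) and 1 was lower (Ifitm2), where 4.83% of all 12661 genes tested were higher and 4.37% lower. The remaining 27 did not pass even that. With yolk sac transcripts as a covariate 2 were higher, Usp18 and Ifit1, and none lower, and without the 4 arrays high in Apoa1, which leaves a single Cox-1 KO array (assumed to vary like the wild-type arrays) and 2 residual degrees of freedom, none passed. Without Cox-1 KO replicate 3, 1 was higher (Usp18) and 2 were lower (Ifitm2 and Eif2ak2). The share of all genes that passed was not counted in these alternative fits, so their counts cannot be set against it. The methods' t-test gave 5 genes at an unadjusted p of 0.05 or less, the same 4 and Oasl1, where 5.92% of all genes had such a p, and none after Benjamini-Hochberg adjustment. None passed the methods' further threshold of a ratio of 1.5 between mean signals, which 0.419% of all genes passed upward and 0.261% downward. None of the 48 probe sets of these genes is listed in the study's additional file.

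The differences were small, and the arrays set close limits on them. On the log2 scale the differences of the 31 genes, Cox-1 KO minus wild-type, ran from -0.24 for Mx1 to 0.26 for Oasl1, with a median of 0.04, against a median of -0.01 over all genes tested. The difference was above 0 in 20 of the 31 (64.5%) and in 47.3% of all genes. A difference of less than 0.1 in either direction was found in 20 genes (64.5%), and in 52.2% of all genes. The 95% interval of the difference lay inside a 1.5-fold change in either direction for 30 of the 31 genes, the exception being Mx1, and for 78.6% of all genes. Brighter probe sets have narrower intervals: of the 7200 genes with a mean signal of 1000 or more, 95.3% had an interval inside 1.5-fold, and so did each of the 28 interferon-stimulated genes at that brightness. All 31 had signals over 100 on every array, the lowest being 212 for Mx1, so no gene was lost to the filter on low signals.

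**Figure D1:**
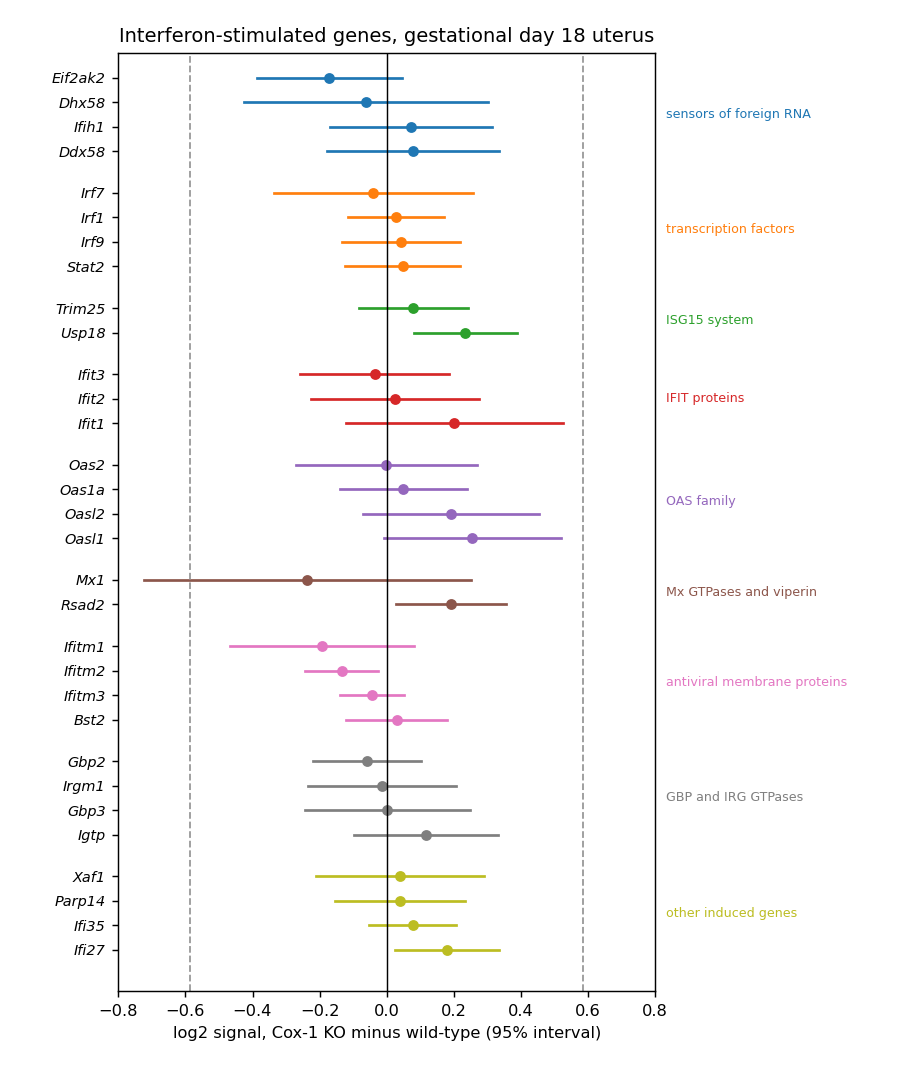
Log2 difference in signal (Cox-1 KO minus wild-type, horizontal axis) for the 31 interferon-stimulated genes, grouped by role. Points are limma estimates from 4 arrays of each genotype, bars are 95% intervals and dashed lines mark a 1.5-fold change, which only the interval of Mx1 crosses.

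**Figure D2:**
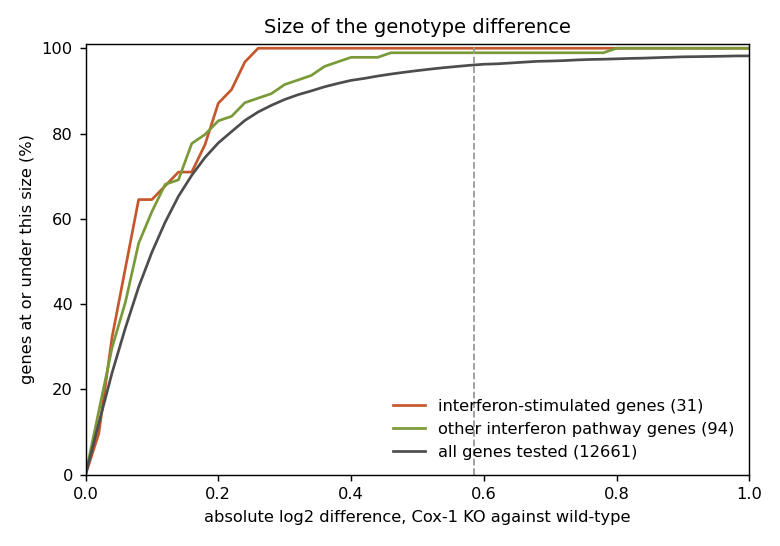
Share of genes (percent, vertical axis) whose absolute log2 difference between the genotypes is at or under the size on the horizontal axis, for 31 interferon-stimulated genes, 94 other interferon pathway genes and 12661 genes tested. The dashed line is a 1.5-fold change, which none of the 31 reached.

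The RNA sensors, which detect viral RNA in the cytoplasm and start the production of interferon, gave no call. Eif2ak2, the kinase PKR that halts translation when it binds double-stranded RNA, had the smallest p of the 4. Its signals were 1342, 1445, 1372 and 1264 in wild-type uterus, in the order of replicates 1 to 4, against 1196, 1224, 1382 and 1033 in Cox-1 KO uterus. The Cox-1 KO replicates 1, 2 and 4 thus lay below all wild-type arrays, and replicate 3 lay among them. Leaving out replicate 3, the highest Cox-1 KO array, was bound to widen the log2 difference, to -0.24 (limma unadjusted p = 0.0338). Of the 22 alternative settings tried, this alone gave Eif2ak2 an unadjusted p under 0.05, and its smallest adjusted p over them was 0.556. Over all arrays the log2 difference was -0.17 (95% interval -0.39 to 0.04, limma adjusted p = 0.634), and its other probe sets gave -0.05 and -0.06. Ifih1, the sensor MDA5 of long double-stranded RNA, averaged 2003 ± 240 on wild-type and 2104 ± 245 on Cox-1 KO arrays (SD, n = 4 each). Ddx58, the sensor RIG-I of short RNA with a triphosphate end, had 1535 ± 155 and 1628 ± 248. Dhx58, the regulator LGP2 of both, had 513 ± 119 and 486 ± 62.6, and wild-type replicate 4 was its brightest array at 691. Their log2 differences were 0.07, 0.08 and -0.06.

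Among the transcription factors of the pathway none had an unadjusted p under 0.05. Stat2, a subunit of the complex that binds the response element, had signals of 1097, 1055, 1097 and 1098 on the wild-type arrays and 1069, 1106, 1212 and 1110 on the Cox-1 KO arrays. The wild-type arrays lay close together, with Cox-1 KO replicates 2 and 4 just above the highest of them, replicate 3 further above and replicate 1 among them. The log2 difference was 0.05 (95% interval -0.12 to 0.22, limma adjusted p = 0.88). Irf9, which gives that complex its DNA contact, had 2046 ± 114 and 2111 ± 163 (SD, n = 4 each), a difference of 0.04. Irf1, a factor induced mainly by gamma interferon, had 2304 ± 96.8 and 2349 ± 81.1, and every Cox-1 KO value lay between the lowest and the highest wild-type value. Irf7, the factor that amplifies alpha interferon and is itself strongly induced by it, varied more within each genotype. Its signals were 1996, 1734, 2059 and 1440 in wild-type and 1484, 1589, 1890 and 2063 in Cox-1 KO uterus, and the groups overlapped (log2 difference -0.04, 95% interval -0.34 to 0.26).

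Usp18 had the smallest p of the 31 genes. It encodes the protease that strips the ubiquitin-like protein Isg15 from its targets and also blocks signalling at Ifnar2. The signals were 2211, 2093, 2080 and 2218 in wild-type uterus, again in the order of replicates, against 2534, 2400, 2758 and 2433 in Cox-1 KO uterus. The lowest Cox-1 KO array was thus brighter than the highest wild-type array. Wild-type arrays averaged 2151 ± 74.1 and Cox-1 KO arrays 2531 ± 162 (SD, n = 4 each), a ratio of 1.18. The log2 difference was 0.23 (standard error 0.0697, 95% interval 0.08 to 0.39). This did not pass over all probe sets (limma adjusted p = 0.48), while the exact permutation test on the gene alone gave a two-sided p = 0.0286, the smallest that 4 arrays against 4 allow. Groups that did not overlap, with Cox-1 KO above, were found for 2 of the 31 genes, Usp18 and Rsad2, and for 1.84% of all genes. None of the 31 lay wholly below, as 2.5% of all genes did. The difference of Usp18 was 0.19 with yolk sac transcripts as a covariate (limma unadjusted p = 0.0423) and 0.17 without the arrays high in Apoa1 (unadjusted p = 0.209). Trim25, a ligase that attaches Isg15 and activates the RNA sensor Ddx58, had 4822 ± 242 and 5105 ± 444 (SD, n = 4 each), with Cox-1 KO replicate 4 the lowest of all arrays at 4504.

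Rsad2 was the other gene whose groups did not overlap. Its product viperin makes a chain-terminating nucleotide that stops viral polymerases. The signals were 1801, 1988, 2117 and 2077 in wild-type and 2317, 2254, 2374 and 2159 in Cox-1 KO uterus. The gap between the groups was narrow, from 2117 on wild-type replicate 3 to 2159 on Cox-1 KO replicate 4. Wild-type arrays averaged 1996 ± 141 and Cox-1 KO arrays 2276 ± 92.1 (SD, n = 4 each; log2 difference 0.19, 95% interval 0.03 to 0.35, limma adjusted p = 0.538). The exact permutation test gave a two-sided p = 0.0286, which follows from the lack of overlap and adds nothing to it. Its other probe sets, with wild-type means of 468 and 380 (n = 4 each), gave log2 differences of 0.22 and 0.20, and in the first of these the groups did not overlap either. The difference of the brightest probe set was 0.16 with yolk sac transcripts as a covariate (limma unadjusted p = 0.101) and 0.20 without the arrays high in Apoa1 (unadjusted p = 0.201). Without wild-type replicate 1, the dimmest array, it was 0.14 (limma unadjusted p = 0.0717). Mx1, a GTPase that traps viral nucleocapsids and is disrupted in many laboratory strains, had 382 ± 66.1 and 332 ± 95.03 (SD, n = 4 each). Its interval, -0.72 to 0.25, was the widest, and Cox-1 KO replicate 4, at 212, was its lowest array.

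The promoter of Rsad2 is printed here because the gene carries a copy of the core of the interferon-stimulated response element and its groups did not overlap. The 250 bases before its transcript start (chr12:26456453-26456702, minus strand, GRCm38.p6, from RefSeq), written 5′ to 3′, hold the core of the element (GAAA, then 2 bases of any kind, then GAAA) on the opposite strand at bases -120 to -111, in capitals:
Rsad2: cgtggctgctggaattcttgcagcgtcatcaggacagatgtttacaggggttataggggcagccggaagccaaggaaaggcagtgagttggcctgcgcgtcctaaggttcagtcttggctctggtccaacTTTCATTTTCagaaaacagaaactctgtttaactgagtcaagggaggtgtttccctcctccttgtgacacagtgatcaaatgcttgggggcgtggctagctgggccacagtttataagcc
This is the reference sequence of C57BL/6J, and the sequence of the Cox-1 KO mice at this place was not measured.

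The IFIT proteins, which bind viral RNA at its 5′ end and keep it from being translated, gave no call on all arrays. Ifit1 had the smallest p of the 3, with signals of 1184, 1137, 1303 and 817 in wild-type and 1047, 1436, 1271 and 1311 in Cox-1 KO uterus. The groups overlapped, and wild-type replicate 4 was the lowest array. The log2 difference was 0.20 (95% interval -0.12 to 0.53, limma adjusted p = 0.709), and it was 0.06 without wild-type replicate 4. It was 0.43 with yolk sac transcripts as a covariate (limma unadjusted p = 0.00468, adjusted p = 0.691) and 0.25 without the arrays high in Apoa1, the group that includes wild-type replicate 4. Ifit2 had 2037 ± 247 and 2072 ± 277 and Ifit3 had 1723 ± 212 and 1675 ± 134 (SD, n = 4 each), with log2 differences of 0.02 and -0.04.

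The OAS family, whose active members make the second messenger that switches on RNase L, held the largest positive difference. Oasl1 and Oasl2 are relatives of these enzymes. Oasl1, which represses translation of Irf7, had signals of 433, 551, 449 and 501 in wild-type and 603, 508, 585 and 608 in Cox-1 KO uterus. Cox-1 KO replicates 1, 3 and 4 lay above every wild-type array, and replicate 2 lay within the wild-type range. The mean was 484 ± 53.6 and 576 ± 46.4 (SD, n = 4 each; log2 difference 0.26, 95% interval -0.01 to 0.52, limma adjusted p = 0.573). The 3 higher Cox-1 KO arrays are those high in Apoa1, and without the arrays high in Apoa1 the difference was 0.10 (limma unadjusted p = 0.688). Oasl2 spread more, at 2194 ± 168 and 2532 ± 459, with Cox-1 KO replicate 3 at 3119 and replicate 4 at 2044. Oas1a had 3443 ± 150 and 3580 ± 440, and Oas2 had 1091 ± 191 and 1078 ± 47.5, with a 95% interval of the log2 difference of -0.27 to 0.27.

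The antiviral membrane proteins held the gene with the smallest p among those lower in Cox-1 KO uterus. Ifitm2, which blocks the fusion of viruses in late endosomes, had signals of 27653, 27839, 26684 and 25469 on the wild-type arrays and 23278, 25873, 24878 and 24099 on the Cox-1 KO arrays. The Cox-1 KO replicates 1, 3 and 4 lay below all wild-type arrays, and Cox-1 KO replicate 2 lay above wild-type replicate 4. Wild-type arrays averaged 26911 ± 1087 and Cox-1 KO arrays 24532 ± 1107 (SD, n = 4 each; log2 difference -0.13, 95% interval -0.24 to -0.02, limma adjusted p = 0.53). The exact permutation test gave a two-sided p = 0.0571. With yolk sac transcripts as a covariate the difference was -0.07 (limma unadjusted p = 0.184), and without the arrays high in Apoa1 it was -0.08 (unadjusted p = 0.382). Wild-type replicate 4, the wild-type array high in Apoa1, was the lowest wild-type array of Ifitm2. Its neighbours Ifitm1 and Ifitm3 had 7070 ± 1246 and 6157 ± 819, and 37490.2 ± 1397 and 36352 ± 1007 (SD, n = 4 each), with log2 differences of -0.19 and -0.04. Bst2, the tetherin that holds budding virus on the cell surface, had 9273 ± 306 and 9491 ± 860.

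The promoter of Ifitm2 is shown for comparison with that of Rsad2, since both genes had an unadjusted p under 0.05, in opposite directions. The 250 bases before its transcript start (chr7:140955962-140956211, minus strand, GRCm38.p6, from RefSeq) hold the core of the element on the gene's own strand at bases -46 to -37, in capitals:
Ifitm2: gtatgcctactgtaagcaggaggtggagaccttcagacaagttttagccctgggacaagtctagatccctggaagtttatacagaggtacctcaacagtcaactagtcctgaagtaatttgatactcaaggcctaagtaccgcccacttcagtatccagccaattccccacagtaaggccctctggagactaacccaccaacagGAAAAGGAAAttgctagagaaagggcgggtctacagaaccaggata

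The guanylate-binding proteins and immunity-related GTPases, which attack the vacuoles of intracellular parasites and answer mainly to gamma interferon, gave no call. Igtp had the smallest p of the 4, with signals of 2303, 2160, 1856 and 1761 in wild-type and 2007, 2279, 2345 and 2099 in Cox-1 KO uterus. The groups overlapped, and the log2 difference was 0.12 (95% interval -0.10 to 0.33, limma adjusted p = 0.748). Gbp2 had 4193 ± 60.8 and 4040.0 ± 395 (SD, n = 4 each), with a spread in wild-type far narrower than in Cox-1 KO uterus, where replicate 2 had 4464 and replicate 4 had 3603. Gbp3 had 1290.0 ± 144 and 1292 ± 151 and Irgm1 had 2599 ± 234 and 2581 ± 325, with log2 differences of 0.00 and -0.01.

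Among the other induced genes, Ifi27 had an unadjusted p under 0.05. It encodes a small hydrophobic protein of mitochondria and the nuclear envelope. Its signals on the brightest probe set were 7380, 6567, 6404 and 7246 in wild-type and 7092, 8005, 8368 and 7787 in Cox-1 KO uterus. Cox-1 KO replicate 1 lay within the wild-type range and the others above it. The mean was 6899 ± 485 and 7813 ± 537 (SD, n = 4 each; log2 difference 0.18, 95% interval 0.03 to 0.33, limma adjusted p = 0.538). With yolk sac transcripts as a covariate it was 0.17 (limma unadjusted p = 0.0638), and without the arrays high in Apoa1 it was 0.24 (unadjusted p = 0.0704). The other probe set of Ifi27, whose suffix marks probes shared by several transcripts, separated the genotypes further. It had 5801, 6012, 5304 and 6118 in wild-type and 7093, 7148, 7917 and 6865 in Cox-1 KO uterus, with no overlap and a log2 difference of 0.32 (limma adjusted p = 0.227, unadjusted p = 5.18e-04). Of the 48 probe sets of the 31 genes, 5 had an unadjusted limma p under 0.05, as had 8.81% of all 26444 probe sets. Counted apart from that, the groups did not overlap, with Cox-1 KO above, in 4 of the 48 (that of Usp18, this one of Ifi27 and a pair of Rsad2, of which the other probe set had an unadjusted p of 0.0744) and in 1.5% of all probe sets. Ifi35, a leucine zipper protein, Parp14, a mono-ADP-ribosyltransferase, and Xaf1, a partner of the apoptosis inhibitor XIAP, had log2 differences of 0.08, 0.04 and 0.04. The brightest probe sets of Ifi35 and Trim25 carry the same suffix as that probe set of Ifi27. The others of Ifi35 gave log2 differences of -0.02 and -0.04, and those of Trim25 gave 0.09 and -0.19.

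**Figure D3:**
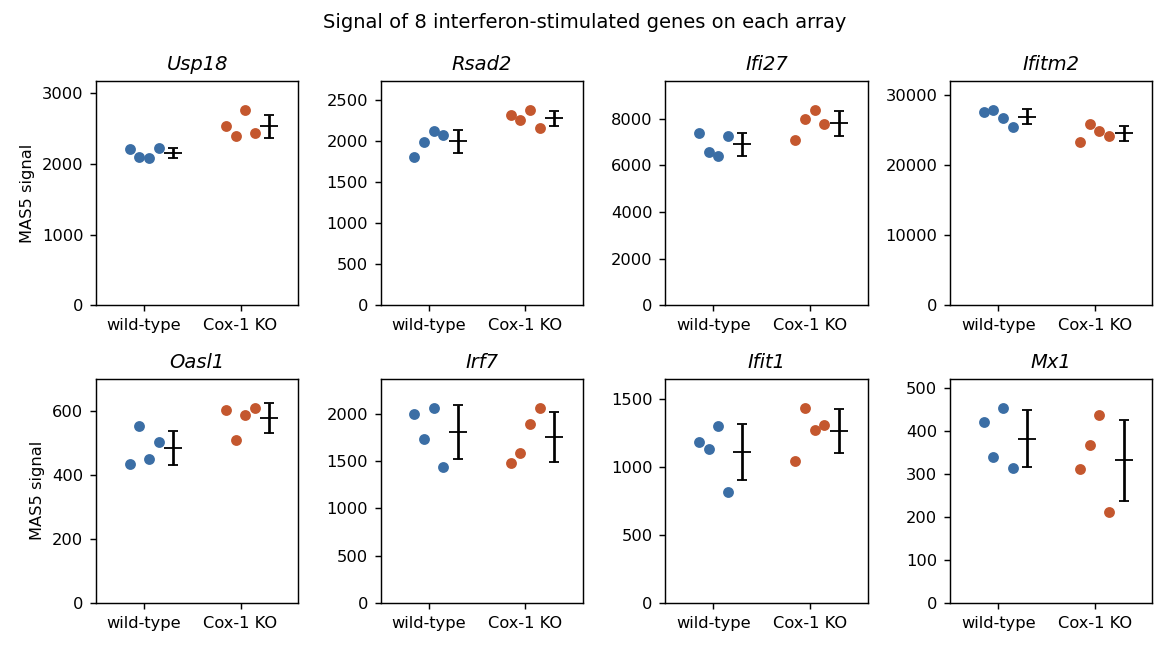
MAS5 signal (vertical axes, from 0) of 8 interferon-stimulated genes on each array, with wild-type in blue and Cox-1 KO in orange. Points are single arrays (n = 4 of each genotype) and black bars are the mean and SD, and the groups are apart only for Usp18 and Rsad2.

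Probe sets of the same gene gave differences of the same sign for 5 of the 11 genes with more than 1 probe set (Eif2ak2, Gbp2, Ifi27, Rsad2 and Stat2). For the other 6 (Ddx58, Dhx58, Ifi35, Parp14, Trim25 and Xaf1) the signs differed, with log2 differences between -0.37 and 0.14, and none of their probe sets had an unadjusted p under 0.05.

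The arrays of one genotype differed from each other in the level of these genes by more than the median difference between the genotypes. For each gene the log2 signal on an array was set against the mean of that gene over the 8 arrays. The median of these deviations over the 31 genes was 0.01, -0.03, -0.02 and -0.01 on the wild-type arrays, in the order of replicates, against -0.04, 0.04, 0.12 and -0.07 on the Cox-1 KO arrays. The 4 Cox-1 KO arrays thus spanned 0.185 and the wild-type arrays 0.039, and all 4 wild-type arrays lay inside the Cox-1 KO range. Cox-1 KO replicate 3 was the brightest array for 11 of the 31 genes (35.5%), where it was the brightest for 9.07% of all genes tested, and it was the dimmest for none, where it was the dimmest for 13.2% of all genes. Cox-1 KO replicate 4 was the dimmest array for 8 of the 31, and for 12.7% of all genes. Both of these arrays are high in Apoa1, as is Cox-1 KO replicate 1. Over all genes tested the median deviations of the arrays ran from -0.015 to 0.015 (log2). The median SD of log2 signal within a genotype was 0.13 for the 31 genes in each, and 0.14 and 0.15 over all genes tested, which include dimmer ones. Among genes with a mean signal of 1000 or more, the wild-type medians were 0.107 for 28 interferon-stimulated genes and 0.106 for all 7200. The Cox-1 KO medians were 0.131 and 0.109. At that brightness the interferon-stimulated genes thus spread more than other genes among the Cox-1 KO arrays only. This difference in spread was not tested. Macrophage markers (10 of 10 measured) had summed signals of 72786 to 76912 in wild-type and 73128 to 83682 in Cox-1 KO uterus, and were highest on Cox-1 KO replicates 2 and 3. At an unadjusted limma p under 0.05, 1 of the 10 (Csf1r) was higher, where 4.83% of all genes tested were. Natural killer cell markers (5 of 7 measured) had 4026 to 6702 and 5160 to 8629, and 3 of the 5 were higher at an unadjusted limma p under 0.05. Klrd1 and Gzma, which did not pass, had log2 differences of -0.03 and 0.62. Plasma cell markers (4 of 5 measured) had 10429 to 32408 and 56979 to 63029, with no overlap, and neutrophil markers (3 of 7) had 396 to 735 and 785 to 2101. Of the 3 neutrophil markers, 2 were higher at the same threshold. A sum follows its brightest probe sets, such as Igha among the plasma cell markers, which averaged 13069.2 and 42230.5. Of the 4 plasma cell markers, 3 were higher at an unadjusted limma p under 0.05, while Sdc1 had 2808 ± 378 and 2792 ± 409 (SD, n = 4 each). Plasmacytoid dendritic cells are the professional makers of alpha interferon. Their markers (3 of 4 measured) had summed signals of 423 to 717 and 578 to 1997, with the highest sum on Cox-1 KO replicate 4. Most of that sum was Ly6d, at 1560 on that array, with Cox6a2 at 370. Neither Ly6d nor Cox6a2 had an unadjusted limma p under 0.05, and Ccr9 was under 100 on every array and was not tested. The part of these cells in the result was not tested.

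**Figure D4:**
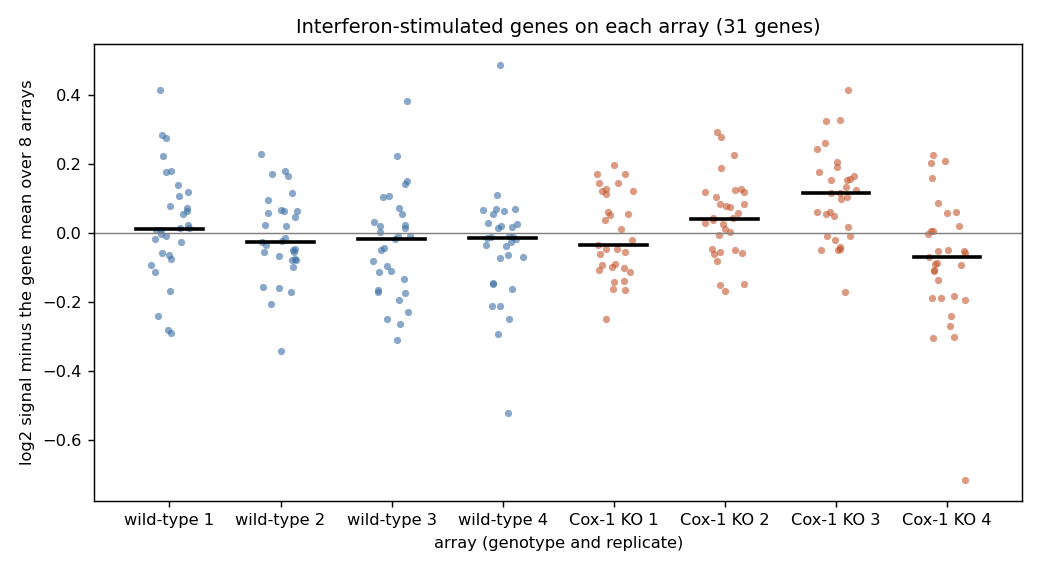
Log2 signal of each of the 31 interferon-stimulated genes minus its mean over the 8 arrays (vertical axis), by array. Points are genes, black lines are medians, and the medians run from -0.07 on Cox-1 KO replicate 4 to 0.12 on Cox-1 KO replicate 3.

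Of the rest of the pathway, listed from general knowledge, 94 of 148 genes were tested, 4 were below the filter on low signals and 50 had no probe set of their own in the annotation, the alpha interferons among them. None had an adjusted p under 0.05 with limma or after adjustment of the methods' t-test. At an unadjusted limma p under 0.05, 6 of the 94 were higher and 1 was lower, where 4.83% of all 12661 genes tested were higher and 4.37% lower. The other 87 did not pass. The median log2 difference of the 94 was 0.04, against -0.01 over all genes tested. The difference was above 0 in 64 of the 94, and in 47.3% of all genes. Ifnb1, beta interferon, had signals of 33 to 119 in wild-type and 41 to 119 in Cox-1 KO uterus and was not tested, and Ifnz, a type I interferon of mice, had 90 to 192 and 104 to 193. The receptors had a level on every array, and none of the 6 passed. Ifnar1 had 1314 ± 193 and 1355 ± 68.9, Ifnar2 had 6131 ± 225 and 5904 ± 579, Ifngr1 had 3829 ± 208 and 3574 ± 157, and Ifngr2 had 2063 ± 139 and 2080 ± 170 (SD, n = 4 each). Ifnlr1, the lambda receptor chain, had 565 ± 170 and 676 ± 122, and its partner Il10rb had 4260 ± 426 and 4719 ± 664. The kinases Jak1, Jak2 and Tyk2 and the factor Stat3 had log2 differences of -0.12 to -0.02, and none of the 12 genes that induce interferon or the 7 inhibitors had an unadjusted p under 0.05.

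The pathway genes with an unadjusted p under 0.05 were all further induced genes. Parp9, an ADP-ribosyltransferase subunit that enhances interferon signalling, had the smallest p. Its signals were 2343, 2604, 2541 and 2436 in wild-type and 2994, 2830, 3177 and 2822 in Cox-1 KO uterus, with no overlap (log2 difference 0.25, limma adjusted p = 0.416). Its two-sided p = 0.0286 in the exact permutation test follows from the lack of overlap and adds nothing to it. Cmpk2, a mitochondrial nucleotide kinase and the direct neighbour of Rsad2 on chromosome 12, had 390, 278, 334 and 384 in wild-type and 458, 437, 400 and 454 in Cox-1 KO uterus, again with no overlap (log2 difference 0.35, adjusted p = 0.541). Trim34a and Shisa5 also had groups that did not overlap, with Cox-1 KO above, so 4 of the 94 did, where 1.84% of all genes did. None of the 94 lay wholly below, as 2.5% of all genes did. Trim34a and Shisa5 had log2 differences of 0.12 and 0.10 and unadjusted limma p-values of 0.118 and 0.0576. Both were named after their values were seen. The rest of those with an unadjusted p under 0.05, named likewise, were Rtp4, Gbp7 and Lgals9, with log2 differences of 0.19, 0.17 and 0.16, Gbp6, with -0.31, and Ifi30, and none passed after adjustment. Ifi30, the thiol reductase of antigen-presenting cells, had 6748, 7281 and 7115 on wild-type replicates 1 to 3 and 7354 on Cox-1 KO replicate 2, and 9318 to 11973 on the arrays high in Apoa1. Its log2 difference of 0.39 became 0.12 with yolk sac transcripts as a covariate. That of Lgals9 went from 0.16 to 0.07 and that of Gbp6 from -0.31 to -0.23, and without the arrays high in Apoa1 these were 0.05 and -0.12. Cmpk2 went from 0.35 to 0.29 with the covariate (limma unadjusted p = 0.123). Of the pathway genes with an unadjusted p under 0.05 in the main setting, Parp9 alone kept it with the covariate, at a log2 difference of 0.24 (limma unadjusted p = 0.0167). Pathway genes that came under 0.05 only with the covariate are not named here. Without the arrays high in Apoa1 its difference was 0.18 (limma unadjusted p = 0.191).

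The promoters of the interferon-stimulated genes carried the core of the response element more often than the promoters of all genes. Of the 34 genes, 27 had a promoter of 250 bases before to 50 bases after the transcript start in the RefSeq table (GRCm38.p6), and the table holds none for Dhx58, Usp18, Oas2, Mx1, Mx2, Ifi27 and Parp14. The core of the response element, GAAA followed after 2 bases of any kind by another GAAA, was found on either strand in 16 of the 27 (59.3%), against 3.99% of all 27025 genes with a promoter and 41 of 116 (35.3%) in the rest of the pathway. The core of the gamma-activated site, TTCNNNGAA, was found in 8 of the 27 (29.6%), against 9.55% of all genes. The cores overlap each other in Bst2 and in Ifitm3. To show how alike the element is between genes, 30 bases around it are given for genes of different roles, 5′ to 3′ on the strand of the gene, with every copy of the core or its reverse complement that lies within the 30 bases in capitals:
Stat2: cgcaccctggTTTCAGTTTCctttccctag
Ifit1: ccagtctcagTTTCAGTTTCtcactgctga
Ifit3: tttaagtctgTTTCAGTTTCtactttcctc
Oas1a: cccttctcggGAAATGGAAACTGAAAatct
Igtp: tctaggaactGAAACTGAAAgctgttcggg
Gbp2: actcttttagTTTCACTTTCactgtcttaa
Bst2: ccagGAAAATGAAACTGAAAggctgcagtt
These lie at chr10:128270266-128270295 (Stat2, plus strand), chr19:34640794-34640823 (Ifit1, plus), chr19:34583397-34583426 (Ifit3, plus), chr5:120907526-120907555 (Oas1a, minus), chr11:58199512-58199541 (Igtp, plus), chr3:142620594-142620623 (Gbp2, plus) and chr8:71537577-71537606 (Bst2, minus). Of the genes shown, Ifit1, Ifit3 and Stat2 share the same stretch of capitals. Its reverse complement is the stretch of Igtp and lies within those of Oas1a and Bst2, where the copies run into each other.

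Genes with and without the element in this window both had median differences near 0 between the genotypes. Of the measured genes, 15 held it, with a median log2 difference of 0.03 and a range of -0.17 to 0.20, and 10 did not, with a median of 0.04 and a range of -0.19 to 0.26. The 15 included Rsad2 and Ifitm2. A match is a description of letters and not a measured binding site.

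**Figure D5:**
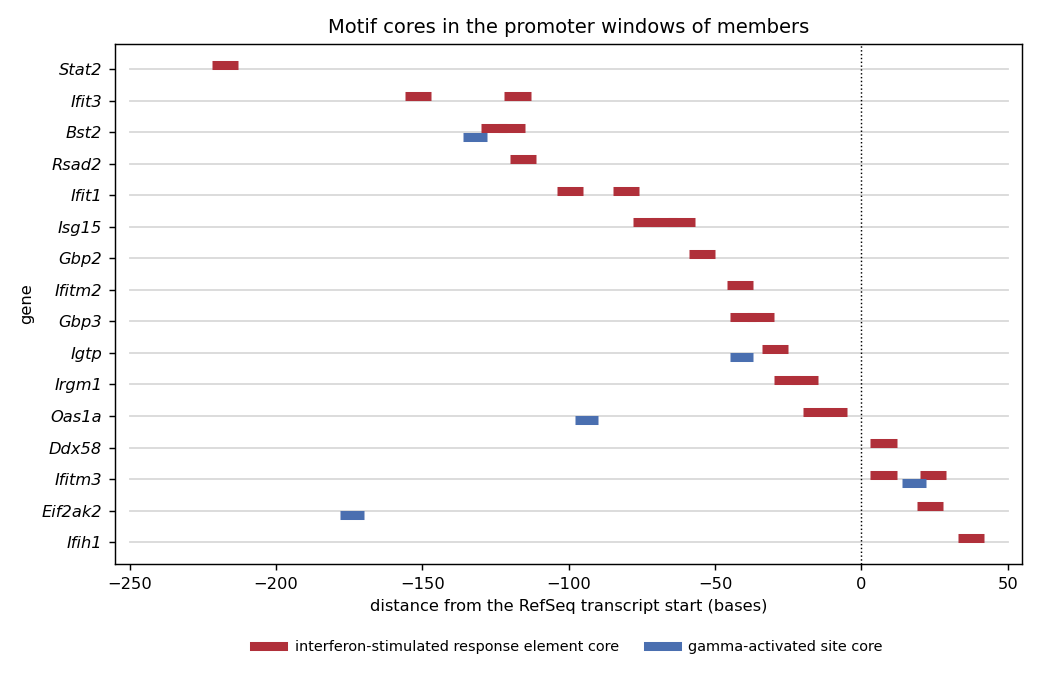
Position of the response element core (red) and the gamma-activated site core (blue) relative to the RefSeq transcript start (horizontal axis, in bases), for the 16 listed genes with at least 1 response element core. Each row is a gene, and in 12 of the 16 the red core lies before the start.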

How the data were processed

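RNA of gravid uterus from 4 wild-type and 4 Cox-1 KO mice was hybridised to Affymetrix mouse arrays, a mouse to each array. The deposited values are linear signal intensity per probe set, which the authors computed with MAS5, as the submitters' processing notes also name, after scaling each array to a target intensity of 1000. How the 28000 probe sets of the table were selected is not given in the sources used here, and the table holds no detection calls. The number of arrays limits the precision. A further file of the authors holds their own comparison, and no value of it was used. It served only to find the probe set of Ptgs1 and to see which probe sets it lists.

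The 60 control probe sets were removed, 1 signal under 1 was set to 1, signals were taken to log2, and the 26444 probe sets that reached 100 on 4 or more arrays were kept. Genotypes were compared with limma 3.58.1 (R 4.3.3; eBayes with an intensity trend), with Benjamini-Hochberg adjustment over all kept probe sets, and with a two-sided exact permutation test over the 70 assignments of the arrays for single genes. The fit was tested on simulated data. The methods' t-test (unequal variances, log2 signals; called at p up to 0.05 with mean signals 1.5-fold apart) was an alternative. Genes were named from the platform annotation: 23567 probe sets have 1 symbol, 653 several and 3768 none, and a probe set with several names no gene. The brightest probe set stands for a gene.

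The genes, the pathway list and the marker lists were chosen with earlier results of these data known. All arrays are given for genes with an unadjusted limma p under 0.05 or groups that do not overlap and for the smallest p in each role. Of the rest of the pathway, ligands and receptors are given, along with genes that meet both criteria, and others are marked as named after their values were seen. Promoter sequences are those of RefSeq (GRCm38.p6), searched on both strands with Python 3.11.15. Beside the main setting 22 others were tried: added constants, filters, scalings, other fits, a replicate block, yolk sac transcripts, and leaving out arrays.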

Additional observations from a re-analysis of the deposited data

Results flagged for a closer look

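Of 62 groups of 4 arrays (31 genes in 2 genotypes) 4 held an array far from the others, where chance gives about 1 in 20. All were wild-type arrays. Ifih1 had a signal of 1647 on wild-type replicate 3, below the others, with a gap of 0.853 of the range of the group. Dhx58 had 691 on replicate 4, above the others (0.855). Stat2 had 1055 on replicate 2, below the others (0.977), although its whole wild-type range was narrow. Ifit2 had 1670 on replicate 1, below the others (0.886).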

How the results depend on the processing

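No interferon-stimulated gene had an adjusted p under 0.05 in any of the 22 alternatives, and the median log2 difference moved by less than the spread between arrays in each. That spread was the larger SD of the array medians within a genotype. It exceeds the median difference itself, so a setting that removed the difference would also have met this. Usp18, Rsad2, Ifi27 and Ifitm2 kept their sign in 22 of 22, with an unadjusted p under 0.05 in 21, 17, 14 and 17 of them. The count of genes lower in Cox-1 KO uterus, 1 as reported, was 2 with quantile normalization and 2 with a replicate block, and 0 without the intensity trend, with yolk sac transcripts as a covariate and without the arrays high in Apoa1. The count higher, 3 as reported, was 0 without the arrays high in Apoa1. Of the other pathway genes, 6 as reported were higher, and 3 were without the trend, 3 by the methods' t-test and 1 without the arrays high in Apoa1. The 1 lower became 0 with signals under 100 set to 100, quantile normalization, median centring, array weights, the methods' t-test, the mean of all kept probe sets of a gene, yolk sac transcripts as a covariate and without the arrays high in Apoa1. The cause was not tested. The share of all genes at an unadjusted p under 0.05 was counted only in the main setting and for the methods' t-test. The counts in the other settings, those without 1 array among them, therefore have no such share beside them.

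Leaving out 1 array at a time gave 1 to 4 interferon-stimulated genes higher, 0 to 2 lower, 0 to 0 with an adjusted p under 0.05 and a median of 0.014 to 0.053. The lowest count higher, 1, was that without Cox-1 KO replicate 3, and the count lower was 0 without wild-type replicate 2. For the other pathway genes these fits gave 2 to 8 higher, 0 to 3 lower and a median of 0.008 to 0.08, and the count higher was 2 without wild-type replicate 2, and 3 when either Cox-1 KO replicate 3 or wild-type replicate 3 was left out.

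Same-numbered arrays of the genotypes share only a number: the correlations of their deviations were -0.254, 0.219, -0.181 and 0.165. With the replicate number as a block, 2 interferon-stimulated genes were higher and 2 lower, and Ifi27 had an unadjusted limma p of 0.0591.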
